A study of Mus musculus with 3 samples.

Results

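The regions described here are 1890 autosomal stretches of open chromatin that were selected on their own counts: each had at least 20 ATAC-seq counts under the label Fat1 cKO Epcam+, and its scaled value there was at least 3 times that in each of the other 2 libraries. The scaled value is the count plus 1, per 1000000 counts of the library's total outside the mitochondrial genome. The members were drawn from 95842 regions in all, of which 93843 are autosomal and 40021 are autosomal with at least 20 counts in that library (the eligible regions). The 3 libraries were made from cells of skin squamous cell carcinomas that DMBA, a mutagen, and TPA, a tumour promoter, had raised in mice, sorted on Epcam, an adhesion protein of epithelial cells. The library labelled control Epcam+ came from a K14Cre;RYFP tumour. The pair labelled Fat1 cKO, 1 Epcam+ and 1 Epcam-, carries the same tumour code and the genotype K14Cre;Fat1fl/fl,RYFP. In all 3, Cre is driven by the keratin 14 promoter and switches on a YFP reporter, the strain background is given as mixed, and the labels give no age. Each group has 1 library, so there is no replicate error, no test between groups and no p-value, and every direction below is a direction between single libraries. The selection used the counts of all 3 libraries, so the ratios of the members are given as a description.

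ATAC-seq marks DNA that the transposase Tn5 can reach, which is mostly promoters and enhancers. Promoters of broadly expressed genes are usually rich in CpG and open in many cell types, whereas enhancers lie inside or between genes and are open in fewer. In the skin, stratified keratinocytes use keratins 5 and 14, while keratins 7, 8, 18 and 19 and claudins 3 and 7 are typical of simple epithelia such as gland and gut lining. Fat1 is a large protocadherin, and mixed epithelial and mesenchymal tumour cell states are the subject of the study.

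The start sites of 6 genes are shown. They were picked from the starts inside members and belong to epithelial keratins, claudins and cytoskeletal proteins. The starts of another keratin gene, Krt42 (49, 5 and 20 counts), and of Mylk (54, 18 and 17 counts) also lie in members and are not shown. These counts are in the order Fat1 cKO Epcam+, control Epcam+ and Fat1 cKO Epcam-. Each line gives a RefSeq promoter window of 300 bases in build GRCm38.p6, from 250 bases before to 50 after the start, 5′ to 3′ on the strand of the gene. Krt8 is at chr15:102004293-102004592 on the minus strand, Krt7 at chr15:101412153-101412452 on the plus strand and Cldn3 at chr5:134985964-134986263 on the plus strand. Cldn7 is at chr11:69965171-69965470 on the plus strand, Shroom3 at chr5:92809132-92809431 on the plus strand and Myh14 at chr7:44670794-44671093 on the minus strand. Capitals mark the E-box CAGGTG, or its complement CACCTG, which is the letters that Zeb and Snail repressors of epithelial genes are known to bind.
Krt8: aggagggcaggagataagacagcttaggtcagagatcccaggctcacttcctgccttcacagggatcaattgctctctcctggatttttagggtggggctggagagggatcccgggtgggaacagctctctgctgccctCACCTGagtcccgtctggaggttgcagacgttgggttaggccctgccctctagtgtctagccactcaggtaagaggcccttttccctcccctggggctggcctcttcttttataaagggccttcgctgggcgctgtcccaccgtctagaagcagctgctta
Krt7: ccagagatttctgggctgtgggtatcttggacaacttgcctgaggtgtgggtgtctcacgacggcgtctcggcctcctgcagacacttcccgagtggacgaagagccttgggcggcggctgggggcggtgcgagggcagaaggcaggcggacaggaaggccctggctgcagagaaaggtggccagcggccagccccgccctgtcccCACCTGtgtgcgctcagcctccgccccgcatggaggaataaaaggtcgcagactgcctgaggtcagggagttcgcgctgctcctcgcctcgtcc
Cldn3: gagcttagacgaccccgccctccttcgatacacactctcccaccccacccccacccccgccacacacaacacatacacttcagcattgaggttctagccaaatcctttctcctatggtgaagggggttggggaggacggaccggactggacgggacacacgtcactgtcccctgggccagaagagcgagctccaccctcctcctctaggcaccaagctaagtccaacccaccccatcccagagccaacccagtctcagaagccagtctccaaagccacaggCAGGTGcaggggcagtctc
Cldn7: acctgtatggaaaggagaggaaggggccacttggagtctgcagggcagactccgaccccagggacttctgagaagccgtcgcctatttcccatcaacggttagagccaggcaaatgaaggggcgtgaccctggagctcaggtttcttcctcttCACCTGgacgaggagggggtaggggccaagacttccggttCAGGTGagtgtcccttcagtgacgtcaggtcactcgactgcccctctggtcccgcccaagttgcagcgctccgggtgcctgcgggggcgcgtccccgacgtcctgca
Shroom3: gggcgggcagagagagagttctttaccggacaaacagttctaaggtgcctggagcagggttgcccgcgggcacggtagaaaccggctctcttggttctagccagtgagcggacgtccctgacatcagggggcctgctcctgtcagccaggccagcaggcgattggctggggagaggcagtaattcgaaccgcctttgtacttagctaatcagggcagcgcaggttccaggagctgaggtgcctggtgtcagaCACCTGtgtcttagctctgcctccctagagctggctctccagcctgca
Myh14: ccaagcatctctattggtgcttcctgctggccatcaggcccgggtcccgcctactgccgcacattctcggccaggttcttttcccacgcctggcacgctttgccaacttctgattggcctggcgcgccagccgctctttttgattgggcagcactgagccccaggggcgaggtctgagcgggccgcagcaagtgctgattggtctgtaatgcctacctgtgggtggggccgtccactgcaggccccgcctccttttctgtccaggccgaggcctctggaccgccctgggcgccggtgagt
The E-box letters are found in 5 of these 6 picked windows, with Myh14 as the exception, and in Cldn7 they are found on both strands. The Krt42 and Mylk windows, not shown, lack them. Over all 36 promoter windows inside members they were in 17 (47.2%). The share was 17.4% in the windows of other eligible regions and 20.5% in all windows, so the 6 shown do not stand for the members.

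Counts are given below in the order Fat1 cKO Epcam+, control Epcam+ and Fat1 cKO Epcam-. Totals outside the mitochondrial genome were 3812880, 4335304 and 5485317 counts, and no molecular identifiers are described, so intervals cover counting error only. The deposited table also says in which libraries each region was called as a peak, and these calls disagree with the counts of 2 libraries. Of 2890 regions selected by the same rule for the counts labelled control Epcam+, 7.30% were called as a peak in that library and 96.4% in the one labelled Fat1 cKO Epcam-. Of 4886 selected for the counts labelled Fat1 cKO Epcam-, 11.0% were called there and 99.0% in the one labelled control Epcam+. The members do not depend on which of those 2 names belongs to which counts, since the rule treats them alike. Any order given below between those 2 libraries is one between the names of their count columns, and exchanging the names would turn it. Their own calls matched their counts: 1870 of 1890 (98.9%) had a peak call under Fat1 cKO Epcam+. Among all eligible regions this share was 89.6%. No region assigned to Fat1 was a member: its 9 eligible regions summed to 605, 547 and 1063 counts, which does not check the deletion because the deleted part of the gene is not given in the labels.

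Among the eligible regions, 11.9% reached 3 times the library labelled control Epcam+, 15.6% reached 3 times that labelled Fat1 cKO Epcam-, and 4.72% reached both and are the members. Under the label Fat1 cKO Epcam+ the members had a median of 41 counts, between 20 and 274. In the other 2 libraries their medians were 9 and 10 counts, and 4 and 22 members had no count there. The median ratio was 4.65 over control Epcam+ and 5.27 over Fat1 cKO Epcam-. The smaller of the ratios reached 5 in 485 members (25.7%) and 10 in 28. With counting error alone, the 95% Clopper-Pearson interval of both ratios lay above 1 in all 1890 members and at or above 3 in 340 (18.0%). The first of these results is fixed by the rule. Even a member near Muc16 with 20 counts against 9 in Fat1 cKO Epcam- had a lower bound of 1.39. The other 2 libraries were within 1.5 times of each other in 990 members (52.4%), while control Epcam+ was the higher in 598 (31.6%) and Fat1 cKO Epcam- in 302 (16.0%).

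**Figure D1:**
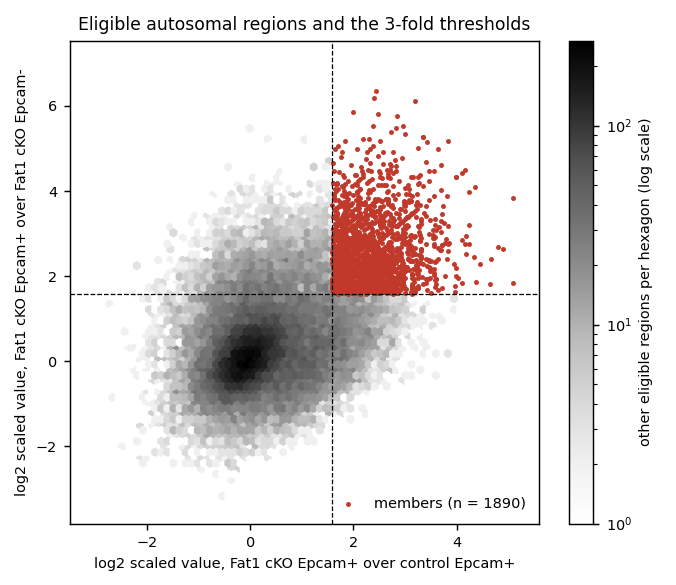
Each eligible region by its log2 ratio of scaled values over control Epcam+ (horizontal axis) and over Fat1 cKO Epcam- (vertical axis); grey hexagons count the other eligible regions on a log scale and red points are the 1890 members. The members fill the corner beyond the dashed 3-fold lines by construction, and their density is highest next to those lines.

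The threshold cuts through a continuous range. Just inside it lay a region 37466 bp from Ints7 with 65, 24 and 26 counts (3.002 times control Epcam+), one 8100 bp from Krt14 with 47, 7 and 22 counts (3.002 times Fat1 cKO Epcam-), and one 17862 bp from Krt80 with 166, 39 and 79 counts (3.003 times Fat1 cKO Epcam-). Just outside were regions at Ano4, S1pr3 and Themis3, each with 28 counts against 10 in control Epcam+ (2.998 times).

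Members were rare at gene ends. Of the 1890, 73 (3.86%, 95% interval 3.04 to 4.83) had their midpoint within 1 kb of either end of a protein-coding gene, against 26.5% of the eligible regions. A further 46.2% lay inside a gene body away from its ends, 26.5% lay 1 to 50 kb outside a gene, and 23.4% lay over 50 kb from any, where the eligible regions had 39.0%, 22.5% and 11.9%. The 2 groups of regions selected in the same way for the other libraries also had few gene ends, 3.25% for control Epcam+ and 5.46% for Fat1 cKO Epcam-. Scarcity at gene ends was therefore shared by all 3 selected groups. Of the 1832 members on chromosomes with listed starts, 55 (3.00%) held a RefSeq transcription start, 33 of them of protein-coding genes and 22 of long non-coding RNAs, against 25.7% of the eligible regions. Members were also narrower, with a median width of 623.5 bp (257 to 1966) against 962 bp, and 77.1% were called as a peak in no other library, against 8.75%. The groups selected for control Epcam+ and Fat1 cKO Epcam- shared these traits. Their median widths were 681 and 585 bp, and all autosomal regions had 642 bp. In them, 85.4% and 86.5% were called only under the other of these 2 names. A start lay in 2.33% and 3.97%, and 19.4% and 23.3% were over 50 kb from any gene. The peak calls come from the same libraries as the counts and are no independent check.

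**Figure D2:**
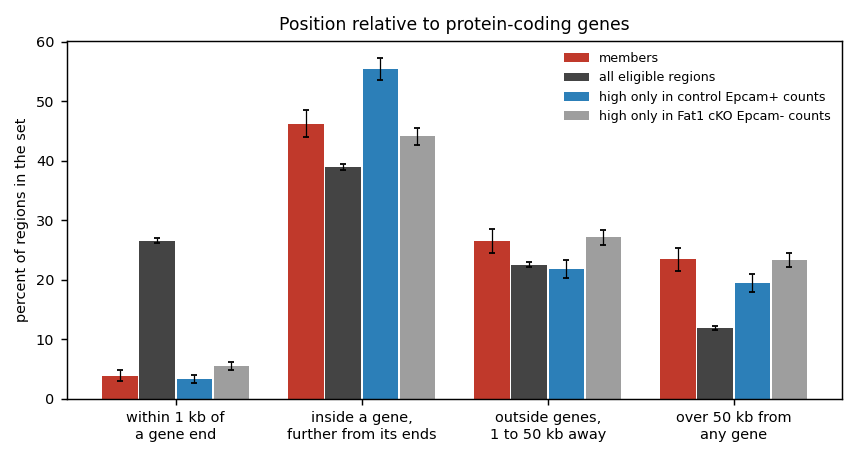
Percent of regions (vertical axis) in 4 positions relative to protein-coding genes, for the 1890 members, the 40021 eligible regions and the 2 groups selected in the same way for the other libraries; bars are percents and lines are 95% Clopper-Pearson intervals. The members' bar is 3.86% at gene ends and 23.4% over 50 kb from any gene, against 26.5% and 11.9% of the eligible regions.

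Of the 8 members with the highest counts, 7 lay over 1 kb from any gene end. The top member, chr7:68667212-68668579, had 274, 39 and 115 counts and lay 69099 bp from Arrdc4, an arrestin-domain gene. A region inside Ehd2, which encodes an ATPase of caveolae, had 270, 55 and 84 counts. A region 12484 bp from Depdc1b had 269, 32 and 36 counts, and one in Lemd1 had 257, 62 and 106. The scaled values in control Epcam+ and Fat1 cKO Epcam- were 9.23 and 21.1 at Arrdc4 and 14.5 and 19.5 at Lemd1. They were nearer each other at Ehd2 (12.9 and 15.5) and at Depdc1b (7.61 and 6.75). The order of these libraries was not tested. The region chr18:81862502-81863917 is 529287 bp from the nearest protein-coding gene, the galanin receptor gene Galr1. It had 250, 13 and 20 counts, which is 20.4 times control Epcam+ (95% interval 12.6 to 41.6) and 17.2 times Fat1 cKO Epcam- (11.4 to 30.0). The remaining 3 of the 8 highest were inside D430042O09Rik (241, 28 and 89 counts), near Cdk19, a kinase of the Mediator complex (241, 76 and 93), and near Sh2d4b (231, 42 and 65).

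The members with the largest smaller ratio had few counts outside Fat1 cKO Epcam+. The leading one, chr5:75163668-75164137, lies inside Pdgfra, a growth factor receptor of mesenchymal cells, and had 46, 2 and 2 counts (17.8 and 22.5 times, with lower bounds of 6.84 and 8.65). The other 3 eligible regions of Pdgfra summed to 212, 271 and 206 counts. A region inside Slc44a3, a choline transporter-like gene, had 41, 2 and 2 counts. A region 134914 bp from the stress gene Gadd45g had 55, 3 and 3. With 1 to 3 counts on the low side these ratios are loose, as their intervals show. A region inside Sim1, a transcription factor gene, had 32, 1 and 2 counts, and one far from Hs3st4 had 29, 1 and 1. Regions near Mrgprd and Mex3c had 61, 4 and 5 and 56, 4 and 4 counts.

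Simple epithelial genes held the largest share of members among the 19 gene lists at the 3-fold rule, while at 5-fold the Fat and Dachsous cadherins held 3 of 30 and the simple epithelial genes 7 of 73. Each region was assigned to the nearest protein-coding gene body within 50 kb, which gave 35242 eligible regions a gene and made 1447 of them (4.11%) members. In the simple epithelial list, 20 of 73 eligible regions were members (27.4%, 95% interval 17.6 to 39.1), spread over 12 genes. The median over all 73 was a log2 ratio of 1.67 over control Epcam+ and 1.11 over Fat1 cKO Epcam-, where all assigned regions had 0.14 and 0.25. Several genes of this list were put on it with earlier results of these data known, so its share is a description. In the groups selected for the other libraries, 0 of 52 and 3 of 70 eligible regions of these genes qualified.

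**Figure D3:**
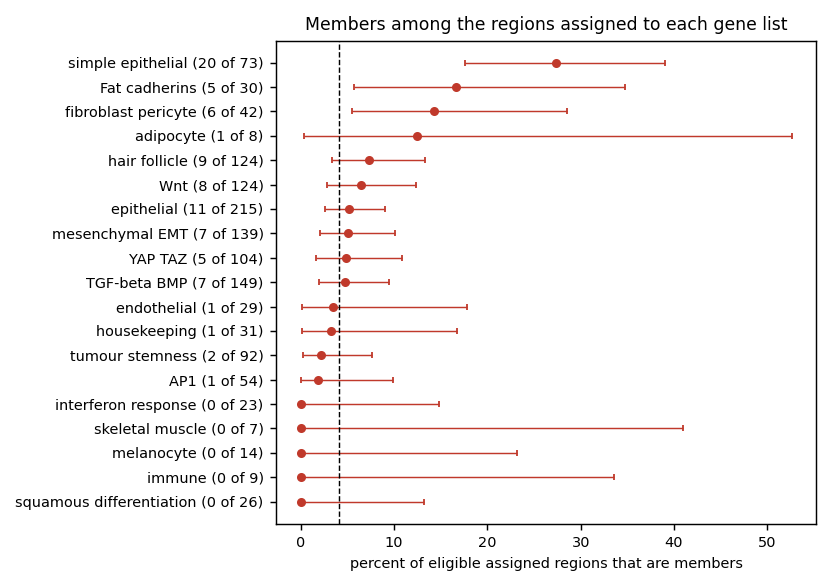
Percent of eligible assigned regions that are members (horizontal axis) for each of 19 gene lists, with the number of members and eligible regions beside each name; points are percents, lines are 95% Clopper-Pearson intervals and the dashed line is the 4.11% of all assigned regions. The simple epithelial list is at 27.4% and the Fat cadherin list at 16.7%; several simple epithelial genes were listed with earlier results of these data known, so the intervals describe counting error and test nothing.

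Keratin 8 and keratin 18, which pair to form the filaments of simple epithelia, had 6 members between them in 43.4 kb of chromosome 15, out of 9 eligible regions. The region over the Krt8 start, chr15:102002863-102004667, had 194, 33 and 42 counts, 6.52 times each of the other libraries (95% intervals 4.60 to 9.99 and 4.74 to 9.51). The region over the Krt18 start, chr15:102028016-102028984, had 73, 16 and 32 counts, 4.95 and 3.23 times. Both regions are members, so their highest value under Fat1 cKO Epcam+ is set by the rule. The scaled value at the Krt18 start was 3.92 in control Epcam+ and 6.02 in Fat1 cKO Epcam-. This order rests on 16 and 32 counts and was not tested. Between the Krt8 and Krt18 starts, one region 10105 bp from Krt18 had 64, 9 and 8 counts. Another, 2516 bp from Krt18, had 29, 6 and 8. A region 2672 bp outside Krt8 had 59, 17 and 11 counts, and the one beyond Krt18, over the start of the non-coding gene Gm41405, had 110, 35 and 9. The 3 eligible regions of this stretch that did not qualify had 113, 42 and 115 counts (1169 bp from Krt8), 197, 66 and 139 counts (11640 bp from Krt18) and 25, 13 and 11 counts (2611 bp from Krt18). They were 3.01, 3.36 and 2.11 times control Epcam+ but 1.41, 2.03 and 3.12 times Fat1 cKO Epcam-.

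**Figure D4:**
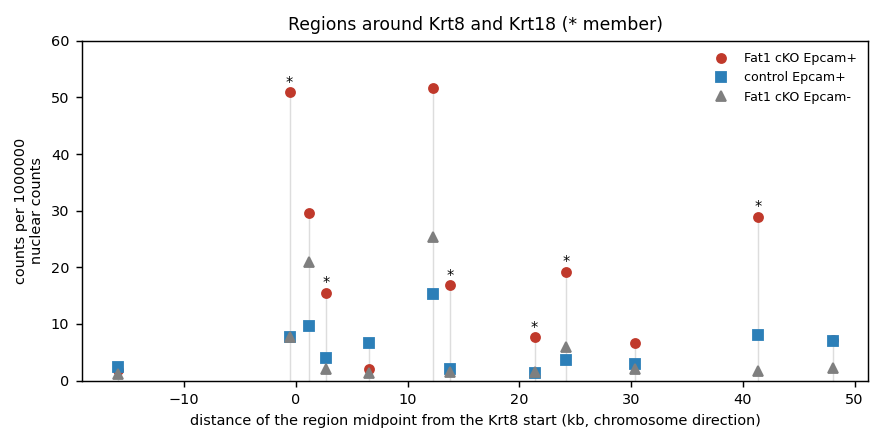
Counts per 1000000 nuclear counts (vertical axis) of the regions around Krt8 and Krt18 by distance of the midpoint from the Krt8 start in kb, with 1 symbol per library and a star over each of the 6 members. The member over the Krt8 start has 50.9 in Fat1 cKO Epcam+ against 7.61 in control Epcam+ and 7.66 in Fat1 cKO Epcam-; an unstarred neighbour 1.17 kb away has 29.6, 9.69 and 21.0.

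Further simple epithelial members were at starts and inside genes. The start of Krt7, the simple keratin of ducts, had 21, 2 and 2 counts, near the minimum count. A region 11987 bp from Krt19 had 48, 15 and 12. Among the claudins, which seal tight junctions, the Cldn3 start had 146, 24 and 64 counts and the Cldn7 start had 85, 10 and 20 (8.89 and 5.89 times). The start of Myh14, a non-muscle myosin heavy chain, had 153, 24 and 59 counts. On the scaled values, the Cldn3 and Myh14 starts were lowest in control Epcam+, while the Krt19 region was lowest in Fat1 cKO Epcam-. In the zinc transporter gene Slc39a4, both eligible regions were members, with 160, 21 and 33 and with 30, 2 and 1 counts. All 3 eligible regions of Muc16, a large cell surface mucin, were members too, and the highest had 110, 9 and 17 counts (12.6 and 8.87 times). Single members belonged to Muc4 (28, 8 and 6 counts) and to Ehf, an epithelial Ets factor (35, 2 and 12).

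General epithelial genes gave 11 members of 215 eligible regions (5.12%), close to the share over all assigned regions. At Krt14, the promoter that drives Cre, 2 of 5 eligible regions were members, one with 84, 8 and 25 counts and one with 47, 7 and 22, while the region over the gene's end had 224, 59 and 243. The low values at the 2 members are set by the rule, and the second lies just inside its threshold. At Epcam, whose protein was the sorting marker, 1 of 6 was a member, 32498 bp away with 113, 18 and 20 counts, and the other 5 summed to 706, 287 and 705. Junction genes gave members at Jup (118, 37 and 53 counts), at Cdh1, the gene of E-cadherin (56, 9 and 22), at Marveld2 (87, 23 and 7) and at the desmogleins Dsg2 (65, 12 and 15) and Dsg3 (37, 9 and 9). The epithelial transcription factor gene Grhl2 had 2 (26, 5 and 1, and 24, 7 and 9). The squamous differentiation list had 0 members of 26 eligible regions (upper bound 13.2%), where 0 of 19 qualified in the group selected for the counts labelled control Epcam+ and 19 of 61 in that for the counts labelled Fat1 cKO Epcam-. Of the general epithelial list, 0 of 160 and 29 of 283 qualified in those groups. Under the peak calls, these counts would belong to each other's names.

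Mesenchymal genes gave 7 members of 139 (5.04%, 95% interval 2.05 to 10.1), close to the 4.11% of all assigned regions. In the group selected for the counts labelled control Epcam+, 39 of 211 qualified, and 1 of 116 in that for the counts labelled Fat1 cKO Epcam-. Over all assigned regions, 5.88% and 7.96% qualified in those groups. The peak calls of those libraries would exchange the names. The 7 were at Pdgfra, Twist1 (40, 2 and 18 counts) and Twist2 (22, 4 and 4), both mesenchymal transcription factor genes, Tcf4 (67, 21 and 24), the matrix genes Dcn (22, 1 and 4) and Fbn1 (35, 12 and 7, and 23, 4 and 5). Markers of fibroblasts and pericytes, cells that a tumour sort could carry over, gave 6 members of 42 (14.3%, 95% interval 5.43 to 28.5). They were at Pdgfra, Twist2, Meox2 (78, 7 and 24 counts), Rgs5 (45, 13 and 16), Col14a1 (35, 10 and 13) and Dpt (22, 2 and 9), and in the other 2 selected groups the list gave 6 of 42 and 5 of 40. Pdgfra and Twist2 are also on the mesenchymal list. Immune and melanocyte markers gave 0 members of 9 and of 14, skeletal muscle 0 of 7, endothelial 1 of 29 (Flt1, 31, 6 and 5 counts) and adipocyte 1 of 8 (Lep, 31, 9 and 14). The part of other cell types in the members was not tested.

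The Fat and Dachsous cadherins, which are Fat1 with its 9 eligible regions and its large relatives, gave 5 members of 30 (16.7%, 95% interval 5.64 to 34.7) at 3 genes. In the groups selected for the counts labelled control Epcam+ and Fat1 cKO Epcam-, 2 of 17 (11.8%) and 1 of 35 qualified. They were 3 regions inside Fat3 (76, 7 and 13, 34, 9 and 8, and 25, 3 and 4 counts), 1 region 21335 bp from Fat2 (73, 7 and 29) and 1 inside Dchs2 (24, 4 and 3). The Dchs2 start also lay in a member, with 103, 33 and 46 counts, that was assigned to a shorter overlapping gene. Among signalling genes, 7 of 149 regions of the TGF-beta and BMP list were members (4.70%, 95% interval 1.91 to 9.44). This is close to the 4.11% of all assigned regions. Bmp7, a BMP ligand, had 3 close together inside the gene, with 124, 15 and 8, 73, 9 and 6, and 62, 10 and 3 counts. Its other 7 eligible regions summed to 545, 192 and 1045, so relative to library totals Fat1 cKO Epcam- was below Fat1 cKO Epcam+ in the 3 members and above it over the others. Ltbp2, which binds latent TGF-beta family proteins and matrix, had 3 members and Ltbp1 had 1. The other 10 eligible regions of Ltbp2 had median ratios of 0.90 over control Epcam+ and 2.53 over Fat1 cKO Epcam-.

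Of the Wnt list, 8 of 124 (6.45%) were members, at the ligand genes Wnt5b (156, 45 and 42, and 61, 8 and 6 counts), Wnt7b (61, 17 and 12, and 28, 5 and 12), Wnt4 and Wnt7a, the receptor gene Fzd7 (91, 11 and 40) and the co-receptor gene Lrp6 (162, 46 and 46). Hair follicle genes gave 9 of 124 (7.26%), with 2 members each for the transcription factor genes Foxc1 (126, 30 and 15, and 39, 10 and 6) and Nfib (48, 1 and 10, and 47, 5 and 10), and others at Nfix, Runx1, Tcf7l1, Tcf7l2 and Lgr6. Both shares are above the 4.11% of all assigned regions, which lies within their 95% intervals of 2.83 to 12.3 and 3.37 to 13.3. YAP and TAZ genes gave 5 of 104, among them 2 inside Tead1 (50, 5 and 8, and 23, 7 and 6), 2 at Amotl2 (50, 18 and 22, and 28, 4 and 6) and 1 at Nf2 (42, 6 and 19), AP-1 subunits 1 of 54 (Batf), interferon response genes 0 of 23, housekeeping genes 1 of 31 (Ywhaz) and the tumour stemness list 2 of 92, both at Src (108, 18 and 38, and 29, 1 and 5).

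By gene, 1122 genes had at least 1 member and 896 had exactly 1. Nav2, a gene of neurite outgrowth, had the most, 9 of its 53 eligible regions, which summed to 879, 218 and 200 counts. Its other 44 had median ratios of 1.41 over control Epcam+ and 2.2 over Fat1 cKO Epcam-. Tenm4, a teneurin, had 7 of 33, Etv6, an Ets repressor, 6 of 25, and Kcnma1, a potassium channel, 6 of 17. The 6 of Etv6 summed to 354, 61 and 64 counts. Ctnna2, an alpha-catenin, had 5 of 12, Sox5 5 of 28 and the secreted matrix protein gene Smoc1 5 of 10, followed by Sspn with 4 of 14, Myo16 with 4 of 14 and Krt18 with 4 of 7. At Sox5 the other 23 eligible regions had median ratios of 0.97 over control Epcam+ and 2.48 over Fat1 cKO Epcam-, and at Ctnna2 the other 7 had 5.12 and 2.06. Of these 10 genes, 6 lie on chromosomes 6 and 7. Long genes can hold more regions, so the number of eligible regions is given beside each.

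With neighbours within 50 kb joined, 1278 members stood alone, 190 stretches held 2, 57 held 3 and the remaining 13 held more. In all, 32.4% of members had another member within 50 kb. The larger groups selected for the other libraries had 43.4% and 43.9%, and the 40021 eligible regions had 91.6% among themselves. Groups of 1890, 2890, 4886 and 40021 regions cannot be compared on this share, since a larger group has more neighbours to offer. Whether another choice of 1890 eligible regions would stand alone as often was not tested. The stretch with the most members held 8 among 13 eligible regions in 99.6 kb of chromosome 7, between Aen and Acan, the aggrecan gene. Its 8 members had between 23 and 126 counts in Fat1 cKO Epcam+ and summed to 650, 133 and 132. One of them, with 126, 29 and 25 counts, held the start of the non-coding gene Gm31213. The 5 eligible regions between them that did not qualify had median ratios of 2.56 over control Epcam+ and 2.05 over Fat1 cKO Epcam-. At Sox11, a developmental transcription factor gene, all 3 eligible regions in 49.4 kb were members and summed to 289, 70 and 106 counts.

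Chromosomes differed in their share of members. It was 6.79% of eligible regions on chromosome 6 (176 members, 95% interval 5.85 to 7.82), 6.69% on chromosome 12 and 6.45% on chromosome 7 (203 members, 5.62 to 7.36), against 2.54% on chromosome 10 and 2.71% on chromosome 19. Whole chromosomes also differed in level between libraries. The median log2 ratio over Fat1 cKO Epcam- over the regions of a chromosome with at least 20 counts in either library was 0.44 on chromosome 7 and 0.27 on chromosome 6, against -0.19 over the autosomes, and on chromosomes 10 and 19 it was -0.38 and -0.44. When each chromosome's median was set to 0 before the rule was applied, the shares became 5.86% on chromosome 6, 4.96% on chromosome 7 and 4.93% on chromosome 10, with 5.53% over all, while chromosome 12 was highest at 8.47%. Of the 1890 members, 1738 were among the 2214 regions selected that way.

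**Figure D5:**
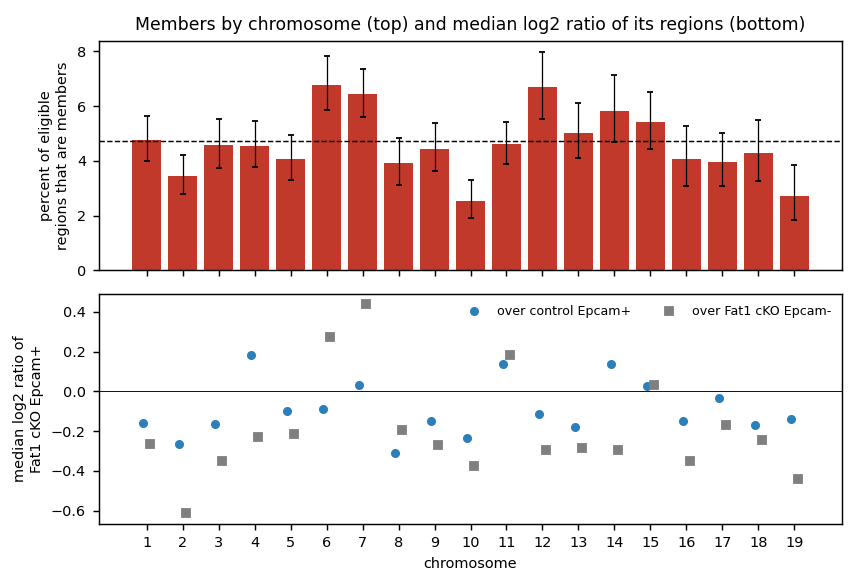
Top, percent of eligible regions that are members on each autosome with 95% Clopper-Pearson intervals, and the 4.72% over all as a dashed line; bottom, median log2 ratio of the chromosome's regions with at least 20 counts in either library, Fat1 cKO Epcam+ over each other library. Chromosomes 6 and 7, at 6.79% and 6.45%, are also those with the highest medians over Fat1 cKO Epcam-, 0.27 and 0.44.

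The few members at transcription starts had less CpG at the median than the other eligible regions with starts. In 36 members a whole RefSeq promoter window lay inside the region (1 window per region), with a median of 5 CG and 54.0% GC, against 22 CG and 62.3% GC for the 8981 windows of the other eligible regions. All 31387 RefSeq windows had a median of 7 CG and 53.0% GC. Of the 36, 11 were starts of long non-coding RNAs, and the sets were not matched on gene type. While 27 of the 36 had 10 or fewer CG, some protein-coding windows were rich in CG, such as Wscd1 with 36 and Acan with 31. Among the 25 protein-coding starts were those of Tmem176b (212, 45 and 93 counts), Sox11 (195, 53 and 84), the neuropeptide gene Qrfp (195, 69 and 55), Shroom3, which shapes the apical cytoskeleton (115, 13 and 35, 9.42 and 4.64 times), Hpn, a membrane serine protease (123, 21 and 25), and Tnip3, which restrains NF-kappaB signalling (145, 41 and 45). The counts of the Krt8, Cldn3, Cldn7, Krt7 and Myh14 windows shown above are given with their genes.

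The 36 windows were searched on both strands for the letters of 12 motifs. Matches of different motifs can share bases, as those of the E-box and Runx or of Sp/Klf and the CTCF core. The Zeb E-box, shown in capitals above, was in 17 of 36 windows (47.2%, 95% interval 30.4 to 64.5), against 17.4% of the other eligible windows and 20.5% of all windows. The Runx letters TGTGGT were also in 17 (47.2%), against 12.0% and 16.7%. The Sp/Klf letters GGGCGG, which contain CG, were in 38.9% against 69.9% and 36.0%. Since CpG differed, windows with 10 or fewer CG, a limit set after the values were seen, were compared: there the E-box was in 13 of 27 (48.1%) against 18.8% of 1295, and Runx in 16 of 27 (59.3%) against 22.3%. The AP-1 letters TGANTCA were in 6 of 36 (16.7%) against 6.15% and 7.85%. For TEAD, GGAATG was found in 9 windows (25.0%) against 11.5% and 14.6%. For Ets, CAGGAAG was found in 10 (27.8%) against 11.5% and 13.4%. The CTCF core AGGGGGC was in 5 windows (13.9%) against 17.7% and 10.7%. In windows with 10 or fewer CG these differences were smaller: AP-1 was in 22.2% of members against 19.2% of the others. TEAD was there in 25.9% against 18.1%, Ets in 25.9% against 19.2%, Sp/Klf in 22.2% against 28.3% and the CTCF core in 7.41% against 8.65%. The CRE letters TGACGTCA, the GATA letters AGATAA and the Grhl letters AACCGGTT were in 1 window each, where all windows had 1.83%, 11.2% and 0.150%. The forkhead letters TGTTTAC and the NFI motif were in none, where all windows had 3.71% and 0.0382%. A match is a description of the letters and not a bound site, and no motif was searched in members away from starts.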

How the data were processed

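Raw counts as deposited by the authors cover regions merged over the 3 libraries (mm10, GRCm38). The deposited peak calls (other values) are yes or no for each region and library. Columns carry the sample titles. Bowtie2 2.2.6, SAMtools, Picard and MACS2 2.1.0.20151222 are named, per the submitters' processing notes, without roles; the counting method, any Tn5 shift and the peak threshold are not stated in the labels. Per the labels' protocols, 100000 sorted cells were used per library.

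Totals left out 2 mitochondrial regions. The 3-fold rule and annotation were run in Python 3.11.15 (scipy 1.17.1, pandas 2.3.3); TMM sizes for an alternative came from edgeR 4.0.16 in R 4.3.3. Coordinates are as deposited; whether starts count from 0 or 1 is not stated. Genes came from the RefSeq GRCm38.p6 table (protein-coding; region midpoint to gene body, within 50 kb; ties to the shorter gene), starts from the RefSeq promoter table, which is not complete and lists none on chromosome 18. Of 379 list genes, 376 matched. No genome was used, so motifs and GC over whole regions were not run. Members and lists were chosen with earlier results of these data known. Named regions were the 8 highest counts, the 10 largest smaller ratios, the 8 highest at gene ends, 10 genes with most members, up to 4 genes per list and 3 regions on each side of the threshold; others (the remaining list members, Shroom3, Hpn, the Krt8 locus, the stretches) were chosen after values were seen. A few regions that this rule names are not reported here. Code was tested on simulated data.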

Additional observations from a re-analysis of the deposited data

How the results depend on the processing

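No paired analysis was possible because each group has 1 library. The rule sets the number of members: 4359 regions passed at 2-fold, 485 at 5-fold, 733 with at least 50 counts and 340 with both lower bounds at 3 or above. Under TMM scaling, pseudocount 5, no minimum count, centred chromosomes and required peak calls it stayed within 1.5 times of 1890 (1303 to 2326). The share near gene ends was 5.29% by lower bounds and 7.94% with 2.5 kb as near; inside genes it was 45.3% by lower bounds; over 50 kb from a gene it was 27.2% at 5-fold and 28.2% by lower bounds. Having another member within 50 kb was 35.7% under TMM, 28.1% with pseudocount 5, 47.2% at 2-fold, 12.0% at 5-fold, 19.5% from 50 counts and 14.7% by lower bounds; within 10 kb it was 11.9%. Called in the own library were 99.6% with pseudocount 5, 97.6% at 2-fold, 99.8% at 5-fold, 90.6% with no minimum and 100% from 50 counts and by lower bounds. Called only there were 74.5% under TMM and with centred chromosomes, 58.2% at 2-fold, 90.1% at 5-fold, 72.9% with no minimum and 49.9% from 50 counts. Median width was 655 bp with pseudocount 5, 657 bp at 2-fold, 602 bp at 5-fold, 561 bp with no minimum, 809 bp from 50 counts and 703.5 bp by lower bounds. The simple epithelial list held 8.22% members by lower bounds and 9.59% at 5-fold, where all assigned regions held 0.692% and 1.00%, and 16.8% to 42.5% otherwise; it ranked first among the lists under each of these rules except 5-fold, where the Fat and Dachsous list held 10.0%. TMM scaling raised all ratios by 0.12 (log2) over control Epcam+ and 0.06 over Fat1 cKO Epcam-. Of 162 recomputed log2 ratios of named members, 7 left their counting interval and none changed sign. The 3-fold rule all but fixes the sign in advance, so its stability is no support. Of the shares per chromosome 129 of 171 left theirs, of the motif shares 5 of 108, and 73 of 190 list counts moved by over 1.5 times. GC over regions was not run. Members have few counts (median 41), which limits single ratios.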

Other observations

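On the sex chromosomes, which the rule leaves out, 25 of 746 X regions with at least 20 counts in the library labelled Fat1 cKO Epcam+ passed the same thresholds, and 0 of 4 Y regions did. Of the autosomal eligible regions, 4.72% passed. By gene family, picked after the values were seen, keratin genes of any kind held 17 members of 84 eligible regions (20.2%), over 10 of 33 genes, and Sox genes held 12 of 71 (16.9%), all at Sox5, Sox6 and Sox11. Claudin genes held 3 of 35 (8.57%), at Cldn3 and Cldn7. Over all assigned regions the share was 4.11%. The keratin count includes the members at Krt7, Krt8, Krt18 and Krt19 described above. Keratin genes with a member outside the simple epithelial list were Krt14, Krt39, Krt42, Krt79, Krt80 and Krt84. At Krt79, a keratin of the hair follicle opening, a region 374 bp from the gene had 48, 5 and 15 counts in the libraries labelled Fat1 cKO Epcam+, control Epcam+ and Fat1 cKO Epcam-, while its other eligible regions had 51, 20 and 36 and 37, 42 and 45.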
